A study of Rattus norvegicus with 6 samples.

Results

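Amino acid transporter genes were compared between young and aged mesenchymal stem cells of rat bone marrow, the stromal cells that can form bone, fat and cartilage. The members were the rows of the count table whose symbol belongs to the solute carrier families Slc1, Slc3, Slc6, Slc7, Slc36, Slc38 or Slc43. That rule used no measured value and found 53 of the 21026 genes in the table. It also took in relatives that carry no amino acid, namely the monoamine transporter genes Slc6a2, Slc6a3 and Slc6a4, the creatine transporter gene Slc6a8 and the nucleobase transporter gene Slc43a3. Polyadenylated RNA was sequenced from 3 young and 3 aged libraries, numbered in the labels as biological replicates 1 to 3 of each group. All libraries came from Rattus norvegicus and the labels name no other treatment. Age in months, strain, sex, passage and the animal behind each library are not stated there. The p-values set the difference between groups against the spread between libraries of a group, and part of that spread may be technical. How far a difference extends to other animals cannot be read from them.

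Cells cannot make every amino acid in the amounts they need, and transporters of the plasma membrane set what enters and leaves. Exchangers such as those of the Slc7 family trade one amino acid for another, whereas sodium-coupled carriers such as those of the Slc38 family concentrate them in the cell. Several Slc7 proteins reach the surface as light chains bound to the heavy chain CD98, the product of Slc3a2, and the pair of Slc7a11 with Slc3a2 imports cystine for glutathione synthesis. Other carriers sit in the lysosome, where they export amino acids and inform the growth kinase mTOR. Many transporter genes are targets of ATF4, the transcription factor of the amino acid response, and Slc7a11 is also a target of NRF2, the factor of the oxidative stress response.

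Total counts were 34638874 to 42479626 per library. Genes with at least 1 count numbered 16337 to 16492 in young and 17790 to 17995 in aged libraries, and mitochondria-encoded transcripts took 1.07% to 1.36% and 4.25% to 4.46% of counts. Young replicate 2 stood somewhat apart, with a chi-square over degrees of freedom of 11.1 and 9.13 against young replicates 1 and 3 and one of 3.64 between those. All 13 stromal marker genes were detected, and they summed to 45213 to 45715 CPM in young and 22807 to 23031 CPM in aged libraries (TMM-scaled counts per 1e6). Of the 13, 9 were lower in aged cells, among them Cxcl12 (16.7-fold) and Thy1 (2.61-fold), and 2 were higher. Lepr and Vcam1, at 0.120 ± 0.139 and 0.360 ± 0.300 CPM in young cells (SD, n = 3), were near 0. The 13 leukocyte and macrophage genes in the table summed to 93.4 to 96.4 CPM in young and 43.7 to 44.8 CPM in aged libraries. Cd14 made up 80.7 ± 0.773 CPM of the young sum, C1qa was at 0 throughout, and the leukocyte marker Ptprc had 1 count in all. Csf1r, the receptor gene of macrophage growth factor, went the other way, from 0.322 ± 0.182 to 21.8 ± 0.552 CPM. The 8 endothelial genes summed to 0.237 to 1.02 CPM over all 6 libraries, with Emcn at 0. The 7 adipocyte genes summed to 371 to 390 CPM in young and 0.642 to 1.28 CPM in aged libraries. Fabp4 made up 321 ± 10.2 CPM of the young sum, and all 5 tested adipocyte genes were lower in aged cells. Of the untested ones, Adipoq was at 0.297 ± 0.198 CPM in young cells and Lep had 6 young and 25 aged counts. The part of these differences in the results below was not tested. In bulk RNA, fewer cells of a type and less RNA per cell cannot be told apart.

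Amino acid transporter genes as a whole took a larger share of the RNA in aged cells, and 1 gene, Slc38a2, made up most of that gain. The 53 members together held 2013, 2000 and 2029 CPM in young libraries 1 to 3 and 4873, 4842 and 4796 CPM in aged libraries 1 to 3. With Slc38a2 left out, the sum was 1598 to 1668.5 CPM in young and 2287 to 2293 CPM in aged libraries, so the groups stayed apart but by less. Of the 53 members, 35 passed the filter on low counts and 18 did not. Of those 35, 29 reached the filter's level, 0.253 counts per 1e6 without TMM scaling, in every library of both groups. Slc1a2, Slc38a3 and Slc7a4 did so in every library of the aged group alone, Slc6a4 and Slc7a15 in every library of the young group alone, and Slc6a16 in all libraries of neither. For the first 5 that group is the one in which they are higher, so the filter favoured a difference. Their calls below, which are among the counts that follow, are given as a description.

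Among the 35 tested members, 20 were higher in aged cells, 13 were lower and 2 were not called (edgeR quasi-likelihood test, adjusted p under 0.05). Of all 14273 tested genes, 86.4% were called, 44.7% higher and 41.8% lower, so the 33 of 35 called members lie near the background and a call alone sets no member apart. A change of at least 2-fold was called for 14 members upward and 7 downward, where the background was 29.4% and 21.0%. In 33 members the 3 libraries of one group lay above the 3 of the other, as they did in 87.5% of all tested genes. The median log2 change (aged over young) was 0.70 over the tested members and 0.05 over all tested genes, whose quartiles were -0.85 and 1.30. Scaling by library size alone raised the log2 changes of all genes by a median of 0.34. With that scaling 20 members were called higher and 12 lower, and without young replicate 2 the numbers were 22 and 13.

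**Figure D1:**
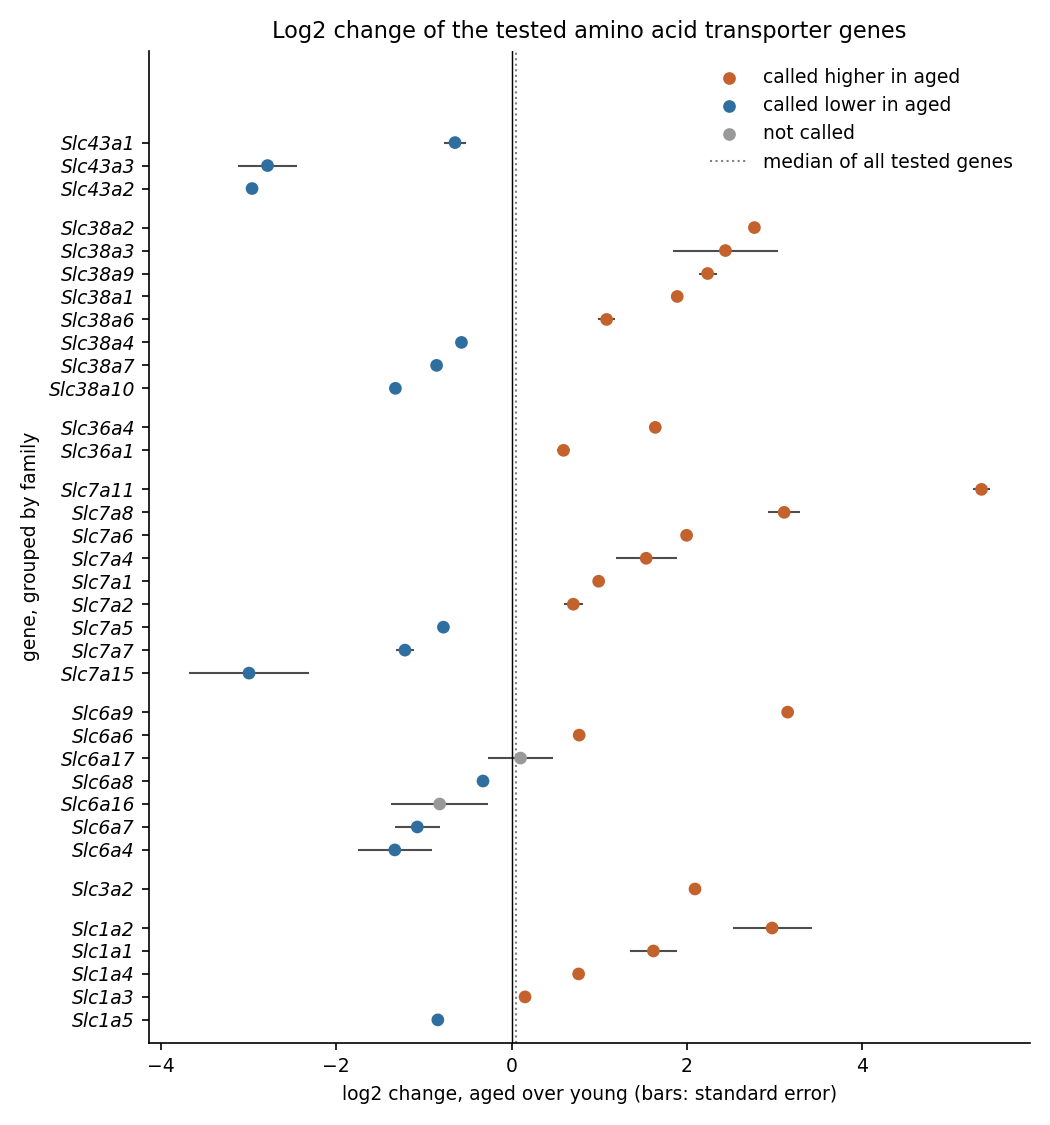
Log2 change (aged over young, horizontal axis) of the 35 tested members, grouped by family, with bars of 1 standard error and n = 3 libraries per group. All 3 Slc43 genes lie to the left, the other families with more than 2 tested members fall on both sides, and Slc7a11 lies farthest to the right at 5.36.

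Promoters are shown for 6 members that rose, and none is shown of a member that fell. These 6 were chosen after the motif search, apart from Slc7a11 and Slc3a2. They therefore cannot show how often a match goes with a rise. RefSeq (build GRCr8) gave 44 promoters for 40 of the 53 members, each from 250 bases before to 50 bases after a start site. Both strands were searched for the core of the amino acid response element, TGATGNAA, the core of the antioxidant response element, TGACNNNGC, and the E-box CACGTG. The amino acid response core was found in 3 of 44 member promoters (6.82%) and in 3.98% of all 33469 promoters. Those 3 belong to Slc38a1, Slc1a4 and Slc7a1, all called higher in aged cells. The antioxidant core was found in 8 member promoters (18.2%, against 12.1% of all). These were the promoters of Slc3a2, Slc38a2, Slc6a6, Slc36a1 and Slc7a1, which rose, of Slc7a7, which fell, and of the untested Slc3a1 and Slc38a8. The E-box was found in 7 (15.9%, against 6.42%), among them those of Slc38a7, Slc43a1 and Slc7a5, which fell, and of Slc1a4 and Slc36a1, which rose. In Slc36a1 an E-box overlapped the antioxidant core. The 250 bases before the start site follow, 5′ to 3′ along the gene, with matches in capitals. A match describes the letters and is not evidence of binding.
Slc7a11, chr2:136668265-136668514, minus strand: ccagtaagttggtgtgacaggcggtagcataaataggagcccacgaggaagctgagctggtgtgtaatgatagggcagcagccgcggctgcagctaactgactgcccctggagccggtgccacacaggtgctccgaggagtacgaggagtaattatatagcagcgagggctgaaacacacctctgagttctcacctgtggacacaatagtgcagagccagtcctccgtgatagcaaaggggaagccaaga
Slc3a2, chr1:215039671-215039920, minus strand: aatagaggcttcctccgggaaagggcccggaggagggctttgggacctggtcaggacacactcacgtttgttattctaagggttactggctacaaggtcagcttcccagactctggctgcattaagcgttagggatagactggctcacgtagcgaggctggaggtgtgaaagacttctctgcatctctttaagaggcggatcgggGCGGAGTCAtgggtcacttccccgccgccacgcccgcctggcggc
Slc38a2, chr7:129742620-129742869, minus strand: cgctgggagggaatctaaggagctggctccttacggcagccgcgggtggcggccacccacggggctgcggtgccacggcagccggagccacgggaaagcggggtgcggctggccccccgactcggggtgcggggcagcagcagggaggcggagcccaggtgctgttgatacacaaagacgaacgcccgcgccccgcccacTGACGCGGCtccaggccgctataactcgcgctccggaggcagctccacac
Slc38a1, chr7:129681402-129681651, minus strand: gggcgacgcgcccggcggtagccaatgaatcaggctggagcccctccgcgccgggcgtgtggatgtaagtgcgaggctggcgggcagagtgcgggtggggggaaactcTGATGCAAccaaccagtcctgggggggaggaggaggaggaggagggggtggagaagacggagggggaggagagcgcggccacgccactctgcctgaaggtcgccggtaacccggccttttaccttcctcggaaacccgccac
Slc1a4, chr14:98761563-98761812, minus strand: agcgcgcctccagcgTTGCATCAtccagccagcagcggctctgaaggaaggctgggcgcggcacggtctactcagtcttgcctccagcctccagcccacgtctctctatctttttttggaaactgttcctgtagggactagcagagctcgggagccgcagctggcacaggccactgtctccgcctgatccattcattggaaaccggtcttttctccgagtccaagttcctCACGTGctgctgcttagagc
Slc7a1, chr12:11664238-11664487, plus strand: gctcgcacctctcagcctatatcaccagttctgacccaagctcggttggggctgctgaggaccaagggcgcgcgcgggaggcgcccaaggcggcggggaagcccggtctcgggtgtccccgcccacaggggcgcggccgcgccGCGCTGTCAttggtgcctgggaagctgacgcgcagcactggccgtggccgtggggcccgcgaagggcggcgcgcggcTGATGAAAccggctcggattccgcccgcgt
The Slc7a11 window holds none of the 3 motifs, which says only that these letters are not in this window. The capitals in Slc3a2 and the first capitals in Slc7a1 are antioxidant cores read on the opposite strand, and in Slc1a4 the amino acid response core is read on the opposite strand too. Slc3a2 has a second RefSeq start site, whose window had no match.

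The cystine transporter changed the most of the tested members. Slc7a11, the light chain that imports cystine in exchange for glutamate, had 1.385, 1.98 and 1.74 CPM in the young libraries and 71.3, 70.6 and 68.9 CPM in the aged ones. These values rest on 50, 75 and 62 young counts and on 2945, 3078 and 2687 aged counts. All aged libraries lay far above all young ones, a 41.2-fold rise with a log2 change of 5.36 and a standard error of 0.09 (edgeR adjusted p = 1.9e-18). Of all tested genes, 98.2% had a smaller log2 change. Its heavy chain Slc3a2 had 206, 184 and 202 CPM in young and 832, 846 and 854 CPM in aged libraries. The groups did not overlap and the rise was 4.27-fold (edgeR adjusted p = 5.2e-18). Both chains of the transporter rose, the light chain by 5.36 and the heavy chain by 2.09 ± 0.04 (SE) on the log2 scale. Slc7a9 and Slc3a1, the light and heavy chain of the cystine transporter of kidney and gut, had 1 and 17 counts in all aged libraries and 0 in all young ones.

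The other light chains that pair with Slc3a2 did not move together. Slc7a6, an exchanger of arginine for neutral amino acids, had 21.4, 22.1 and 21.2 CPM in young and 86.0, 87.7 and 84.9 CPM in aged libraries. That is a 3.99-fold rise with no overlap (edgeR adjusted p = 4.2e-16). An opposite-strand gene, Slc7a6os, has reads that cannot be told apart from those of Slc7a6 where they overlap, since the strand setting is not given. It had 23.0 ± 1.254 CPM in young and 22.2 ± 0.848 CPM in aged cells, with edgeR adjusted p = 0.50. Slc7a8, a light chain for neutral amino acids large and small, rose from a low level. Its young libraries had 1.14, 0.791 and 0.812 CPM and its aged ones 8.21, 7.66 and 7.84 CPM, an 8.64-fold rise (edgeR adjusted p = 2.0e-11).

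Light chains that fell were those of leucine uptake and of arginine exchange in leukocytes and epithelia. Slc7a7, the second exchanger of arginine for neutral amino acids, had 20.8, 21.1 and 20.7 CPM in young and 8.65, 7.91 and 10.4 CPM in aged libraries. It fell 2.32-fold, with the aged libraries more spread than the young (edgeR adjusted p = 2.6e-09). The leukocyte and macrophage sum given above, mostly Cd14 in young cells, was also lower in aged libraries. Of the 4 tested genes of that list, Cd14, Lyz2 (57.8-fold) and Cd68 (3.40-fold) were lower in aged cells and Csf1r was higher. Ptprc was near 0 in both groups. Whether leukocytes had a part in the fall of Slc7a7 was not tested. Slc7a5, which carries leucine and other large neutral amino acids, went from 119 ± 4.32 to 69.3 ± 0.740 CPM and fell 1.71-fold (edgeR adjusted p = 1.6e-11). Slc7a15, an Slc7 member whose substrates are less known, had 40, 24 and 16 counts in young and 9, 2 and 0 in aged libraries. It fell by 2.996 on the log2 scale (edgeR adjusted p = 5.7e-04), or by 4.74 without aged replicate 1.

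These opposite changes altered the make-up of the light chain transcripts. Shares were taken of the summed counts of 5 light chains, Slc7a5, Slc7a6, Slc7a7, Slc7a8 and Slc7a11, without Slc7a15. Of these counts, Slc7a5 held 72.5% ± 1.03 in young and 28.6% ± 0.335 in aged cells (SD, n = 3). The share of Slc7a11 went from 1.04% ± 0.186 to 28.9% ± 0.447 and that of Slc7a6 from 13.2% ± 0.549 to 35.5% ± 0.577. Slc7a7 dropped from 12.7% ± 0.391 to 3.71% ± 0.540. Counts were not divided by transcript length, so the shares show a shift between groups and not which protein is made most.

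**Figure D2:**
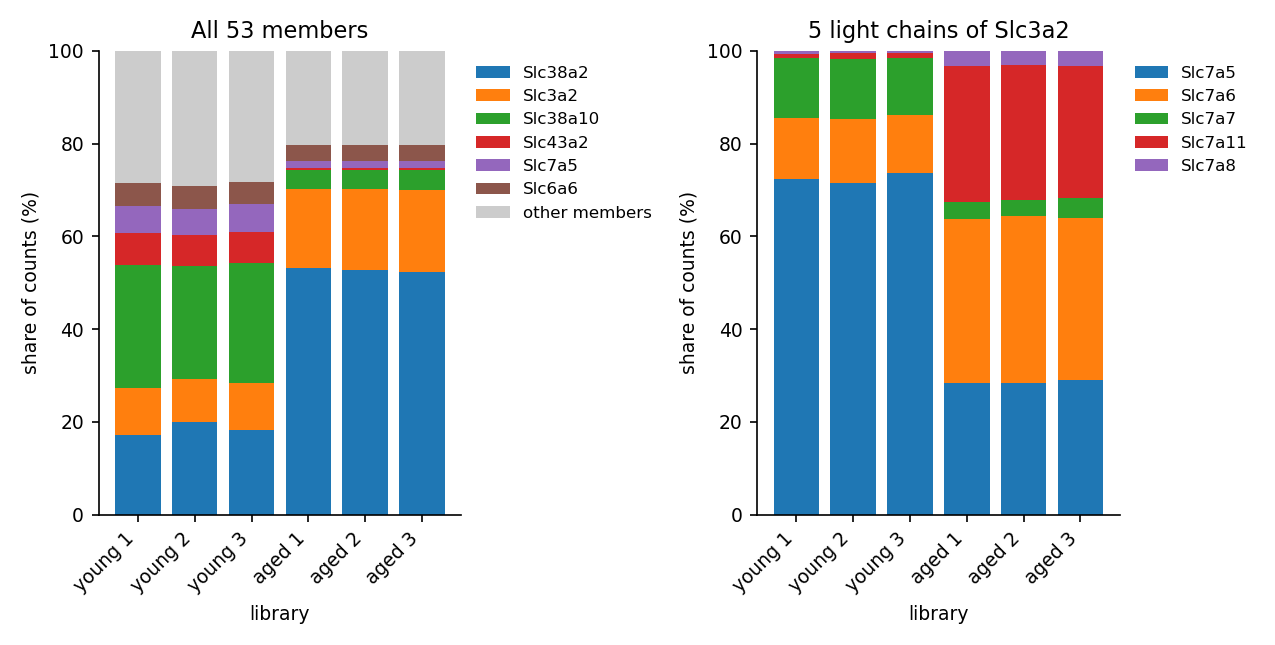
Share of counts (percent, vertical axis) in each of the 6 libraries, of all 53 members on the left and of 5 chosen light chains on the right. Slc38a2 goes from 18.5% to 52.7% of member counts on average, and Slc7a11 from 1.04% to 28.9% of light chain counts, with little spread within a group.

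Within system A, 2 genes rose and 1 fell, and Slc38a2 gave most of the gain in reads over all members. Slc38a2, a sodium-coupled importer of alanine, glutamine and other neutral amino acids that cells raise when starved of amino acids, had 344.5, 402 and 373 CPM in the young libraries. The aged libraries had 2586, 2548 and 2507 CPM, a 6.83-fold rise with no overlap (edgeR adjusted p = 5.1e-19). It held 18.5% ± 1.5 of all member counts in young and 52.7% ± 0.398 in aged cells. Slc38a1, the related glutamine importer, had 29.4, 31.7 and 30.1 CPM in young and 116, 111 and 112 CPM in aged libraries, a 3.71-fold rise (edgeR adjusted p = 4.1e-16). Slc38a4, the third system A gene, was lower by 1.49-fold, at 85.0 ± 2.82 in young and 57.2 ± 1.03 CPM in aged cells (edgeR adjusted p = 3.7e-09). Slc38a3, a system N glutamine transporter of liver and brain, had 10 young and 63 aged counts in all. Its log2 change was 2.44 (edgeR adjusted p = 0.0011), or 3.15 without young replicate 3.

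Lysosomal carriers and the less characterised Slc38 genes were divided. Slc38a9, the lysosomal arginine sensor that acts on mTOR, had 6.095, 8.20 and 5.905 CPM in young and 32.1, 30.9 and 32.5 CPM in aged libraries. The rise was 4.72-fold (edgeR adjusted p = 8.8e-13), and young replicate 2 was the highest of its group. Slc38a6, an orphan carrier, had 7.785, 7.52 and 6.885 CPM in young and 16.1, 15.5 and 15.5 CPM in aged libraries, 2.12-fold higher (edgeR adjusted p = 6.4e-09). Slc38a7, which exports glutamine and asparagine from lysosomes, was lower by 1.81-fold, at 62.9 ± 0.396 against 34.7 ± 2.37 CPM (edgeR adjusted p = 2.3e-10). Slc38a10, found in the secretory pathway, had 534, 486 and 525.5 CPM in young and 206, 206 and 205 CPM in aged libraries. All aged libraries were lower, a 2.51-fold fall (edgeR adjusted p = 9.2e-16), and its share of member counts dropped from 25.6% ± 1.14 to 4.25% ± 0.0279.

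Both tested genes of the Slc36 family rose. Slc36a4, a high-affinity transporter of proline and tryptophan, had 25.2, 28.2 and 24.4 CPM in young and 80.7, 80.9 and 81.0 CPM in aged libraries. The rise was 3.12-fold (edgeR adjusted p = 2.7e-14) and the aged values hardly varied. Slc36a1, which moves small amino acids out of lysosomes, went from 18.1 ± 0.898 to 27.2 ± 0.925 CPM, 1.51-fold (edgeR adjusted p = 6.1e-07).

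Among the sodium-coupled Slc6 carriers the glycine transporter changed the most. Slc6a9, the GlyT1 glycine importer, had 14.7, 14.1 and 13.1 CPM in young and 124, 123 and 124 CPM in aged libraries. That is an 8.88-fold rise with no overlap (edgeR adjusted p = 2.1e-18), and 91.5% of tested genes had a smaller log2 change. The taurine importer gene Slc6a6 rose by 1.71-fold, with 98.0 ± 2.16 CPM in young and 167 ± 1.74 CPM in aged cells (edgeR adjusted p = 3.1e-12). Slc6a8, the creatine importer gene, fell by 1.25-fold, with 68.0 ± 2.55 CPM in young and 54.2 ± 2.42 CPM in aged cells (edgeR adjusted p = 1.9e-05). With scaling by library size alone its log2 change was 0.010 and was not called. The proline transporter gene Slc6a7 fell 2.11-fold, from 2.16 ± 0.356 CPM in young to 1.02 ± 0.0704 CPM in aged cells (edgeR adjusted p = 9.9e-04). Slc6a4, the serotonin transporter gene, fell 2.52-fold from 0.658 ± 0.0711 CPM (edgeR adjusted p = 0.0077). Slc6a16 and Slc6a17, of the neutral amino acid branch, were below 1 CPM on average in both groups and did not pass (edgeR adjusted p = 0.17 and 0.80).

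**Figure D3:**
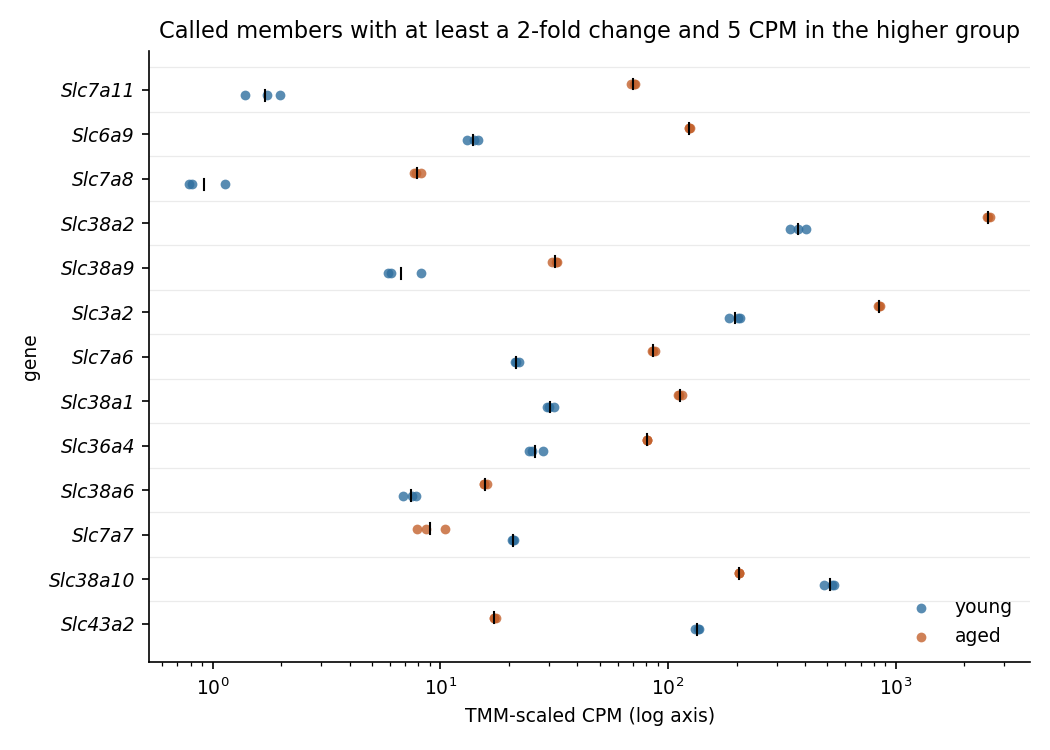
Level in each library (TMM-scaled CPM, log axis) of the 13 called members with a change of at least 2-fold and at least 5 CPM in the higher group. Points are libraries, blue for young and orange for aged, and black ticks are group means. The groups do not overlap for any of the 13, of which Slc7a7, Slc38a10 and Slc43a2 are lower in aged cells.

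Large neutral amino acid carriers of the Slc43 family fell. Slc43a2, a sodium-independent carrier of leucine, phenylalanine and methionine, had 137, 132 and 135 CPM in young and 17.5, 17.2 and 17.1 CPM in aged libraries. It fell 7.79-fold with no overlap (edgeR adjusted p = 1.3e-18), and 3.26% of all tested genes had a log2 change that low or lower. Slc43a1, its relative with like substrates, went from 7.305 ± 0.389 to 4.67 ± 0.375 CPM, a 1.56-fold fall (edgeR adjusted p = 1.7e-04). Slc43a3, the nucleobase carrier, fell 6.89-fold from 2.02 ± 0.263 CPM (edgeR adjusted p = 5.7e-07). Of the 4 genes listed for large neutral amino acids, Slc7a5, Slc43a1 and Slc43a2 were thus lower and Slc7a8 was higher. All 3 Slc43 genes and Slc7a5 kept their direction under every scaling tried.

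Cationic amino acid carriers of the CAT branch rose. Slc7a1, the general arginine and lysine importer, went from 31.7 ± 0.337 to 63.2 ± 1.02 CPM, 1.99-fold (edgeR adjusted p = 6.2e-12). Slc7a2, its inducible relative that feeds arginine to nitric oxide synthase and arginase, went from 7.97 ± 0.688 to 12.99 ± 1.245 CPM, 1.63-fold (edgeR adjusted p = 9.5e-06). Slc7a4, a relative of uncertain function, went from 0.480 ± 0.176 to 1.40 ± 0.0445 CPM (edgeR adjusted p = 5.7e-04). Slc7a3, the third importer, had 13 young and 47 aged counts in all and was too low to test. The nitric oxide synthase and arginase genes were chosen after their values were seen. Nos2 fell 82.9-fold, to 0.302 ± 0.105 CPM in aged cells, and Arg1 fell 36.5-fold, to 1.61 ± 0.0619 CPM. Arg2 was called higher on 10 young and 52 aged counts in all, and Nos3 was too low to test. Whether arginine supply to these enzymes changed was not tested.

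Glutamate and small neutral amino acid carriers of the Slc1 family differed from each other. Slc1a3, a glutamate importer best known from glia, went from 38.4 ± 1.87 to 42.8 ± 1.88 CPM, a 1.11-fold rise (edgeR adjusted p = 0.026). That call was lost in 6 of 13 alternatives, among them those without young replicate 3 (edgeR adjusted p = 0.16), aged replicate 1 (edgeR adjusted p = 0.085) or aged replicate 3 (edgeR adjusted p = 0.10). Slc1a1, which takes up glutamate, aspartate and cysteine, rose 3.07-fold from a low 0.737 ± 0.0501 CPM (edgeR adjusted p = 2.1e-05). Slc1a2, the main glutamate importer of brain, had 19, 3 and 6 young counts and 108, 78 and 66 aged counts. Young replicate 1 was the highest of its group, and the log2 change was 2.97 with it and 3.997 without it (edgeR adjusted p = 9.3e-06 and 7.0e-07). The carriers of small neutral amino acids went opposite ways. Slc1a4, which exchanges alanine, serine and cysteine, rose 1.70-fold, from 64.8 ± 2.09 to 110 ± 1.61 CPM. Slc1a5, which exchanges glutamine as well, fell by 1.79-fold, with 54.2 ± 1.24 CPM against 30.3 ± 0.456 CPM (edgeR adjusted p = 2.4e-11 and 1.3e-10).

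The 18 untested members were near 0 in both groups. Their summed counts ran from 0 to 29 over the 3 young libraries and from 0 to 47 over the 3 aged ones. Slc36a3 and Slc6a21 had 0 counts in all 6 libraries, where a count of 0 allows up to 3 counts, or 0.0688 to 0.0840 CPM depending on the library. That limit covers counting error only. The noradrenaline transporter gene Slc6a2 had 5 young and 38 aged counts, Slc38a8 had 29 and 17, and the other untested members had at most 14 in either group apart from Slc7a3 and Slc3a1, given above.

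Genes around the transporters were read from the same fit, against the same background of 86.4% called. Of 25 genes of the ATF4 pathway, all tested, 14 were higher and 6 lower in aged cells, with a median log2 change of 0.23 (19 and 4 when scaled by library size alone). Atf4 itself rose 1.17-fold, from 401 ± 5.46 to 470 ± 6.13 CPM. Of this list, Asns, which makes asparagine, Trib3, a feedback inhibitor, and Ddit3, encoding CHOP, rose 2.75-fold, 2.75-fold and 2.71-fold. Vldlr, a lipoprotein receptor gene, rose 10.6-fold. Cebpb, a transcription factor gene, fell 3.75-fold. Chac1 of the same list, which degrades glutathione, fell 1.23-fold, and its log2 change was 0.038 when scaled by library size alone. Pycr1, Aldh18a1, Atf3 and Shmt2, chosen after their values were seen, complete the 6 that were lower. They fell 2.69-fold, 1.84-fold, 1.42-fold and 1.37-fold. Eif2ak4, encoding the amino acid sensor kinase GCN2, at 15.0 ± 2.12 CPM in young and 16.9 ± 1.38 CPM in aged cells, did not pass (edgeR adjusted p = 0.12, 0.0046 without young replicate 2, and 2.0e-04 with a log2 change of 0.51 when scaled by library size alone).

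Genes of the NRF2 response and of glutathione metabolism were split. Of 20 tested genes of the NRF2 and glutathione list, 9 were higher and 8 lower (13 and 4 with scaling by library size). Their median log2 change was 0.16. Nfe2l2, encoding NRF2, rose 5.34-fold, from 48.3 ± 3.86 to 258 ± 3.98 CPM. The NRF2 targets Hmox1 and Nqo1, the 2 genes of smallest p in this list, rose 7.13-fold and 3.90-fold. Txnrd1 and Gsr of the same list, chosen after their values were seen, did not rise. Txnrd1 was not called (edgeR adjusted p = 0.95) and Gsr fell 1.29-fold. Gclc, the catalytic subunit of the first enzyme of glutathione synthesis, rose 5.05-fold, from 46.1 ± 3.42 to 233 ± 2.01 CPM. Its modifier subunit Gclm stood at 22.4 ± 1.59 CPM in young and 25.1 ± 1.52 CPM in aged cells and just missed the threshold (edgeR adjusted p = 0.051). Gclm was called without young replicate 2 (edgeR adjusted p = 0.0079), without aged replicate 2 (edgeR adjusted p = 0.044), with limma-voom (adjusted p = 0.045) and with scaling by library size alone (log2 change 0.50, edgeR adjusted p = 1.2e-05). Gpx4, the glutathione enzyme that repairs lipid peroxides, fell 2.55-fold. Cystinosin, the lysosomal cystine exporter gene Ctns, chosen after its values were seen, rose by 1.49-fold, with 16.9 ± 1.52 CPM against 25.2 ± 1.605 CPM (edgeR adjusted p = 4.6e-06).

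Enzymes of amino acid use fell more often than they rose, with 21 of 28 tested genes lower, 7 higher and a median log2 change of -0.92. Of all tested genes, 41.8% were lower and 44.7% higher. With scaling by library size alone, 19 genes of the list were lower and 7 higher, with a median of -0.58. Of the 7, Ckb, chosen after its values were seen, rose 3.33-fold. Glul, encoding glutamine synthetase, fell 2.43-fold, from 923 ± 17.4 to 380 ± 10.1 CPM. Cdo1, the cysteine dioxygenase gene that starts taurine synthesis, had 134, 142 and 140 CPM in young and 2.13, 1.95 and 2.51 CPM in aged libraries. It fell 63.3-fold (edgeR adjusted p = 4.8e-20). Transcripts of Slc7a11, which supplies cysteine, and Cdo1, which breaks it down, thus moved in opposite directions.

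Sensors of lysosomal amino acids were also mixed. Of 24 tested genes, 8 were higher and 12 lower, with a median log2 change of -0.20, which became 0.14 (12 higher and 10 lower) when scaled by library size alone. Fnip1, a regulator of the Rag GTPases, and Lars1, the leucyl-tRNA synthetase that senses leucine, rose 6.67-fold and 3.50-fold. Mtor fell 1.49-fold, from 84.4 ± 3.59 to 56.6 ± 0.340 CPM, and the Rag GTPase gene Rraga rose 1.502-fold.

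Of 20 tested transport genes outside the member families, 10 were higher and 10 lower (12 and 5 with scaling by library size). Their median log2 change was -0.0068. Sfxn3, of the mitochondrial serine carrier family, fell 3.21-fold, from 208 ± 1.69 to 64.8 ± 4.32 CPM. Slc15a3, the lysosomal histidine and peptide transporter gene, had 440, 425 and 433 counts in young libraries and 1 count in all aged ones. The ratio of scaled counts, young over aged, was 1466 (95% exact binomial interval 262.6 to 57940, counting error only).

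**Figure D4:**
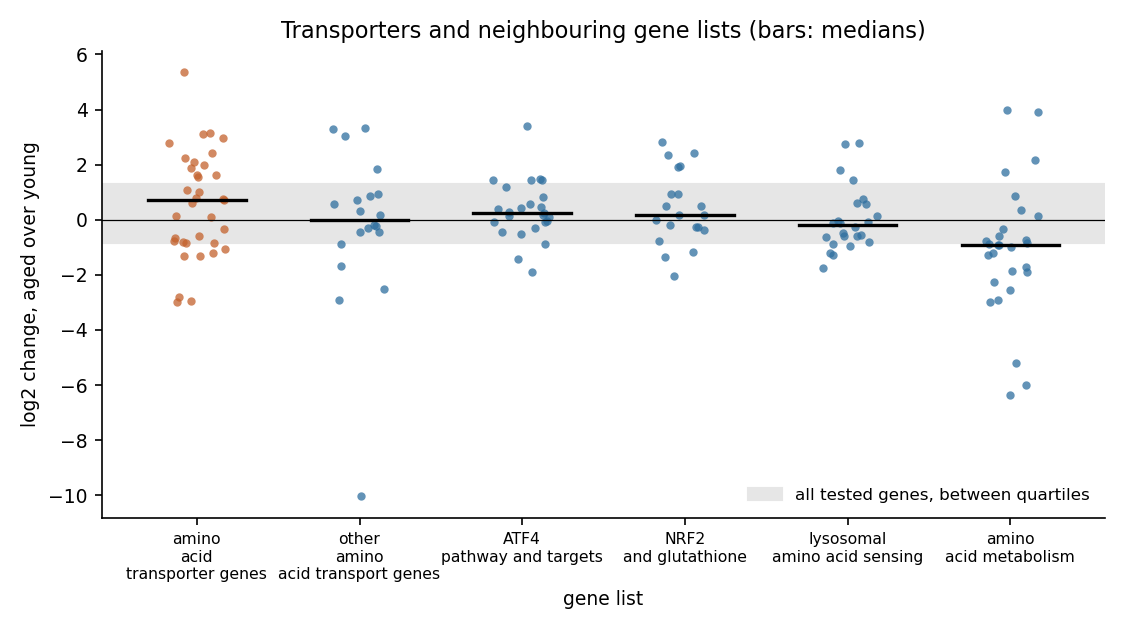
Log2 change (aged over young, vertical axis) of each tested gene of the members and of 5 neighbouring lists, with black bars at the medians and grey between the quartiles of all tested genes. Members have a median of 0.70 and enzymes of amino acid use one of -0.92, and each list spans both directions. The point near -10 is Slc15a3, whose fitted change depends on 1 aged count.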

How the data were processed

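The authors deposited raw read counts per gene symbol for 6 libraries, made with fastp, HISAT2 and HTSeq (no versions or settings named), per the submitters' processing notes. Build, annotation, strand setting and filters are not stated in those sources. TRIzol RNA went into VAHTS Universal V6 libraries, per the labels' protocols. Columns were matched to samples by library name.

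The test was the quasi-likelihood F test of edgeR 4.0.16 (R 4.3.3) for aged against young, with no other term, after filterByExpr (minimum count 10) and TMM scaling. Benjamini-Hochberg adjustment ran over all 14273 tested genes, and an adjusted p under 0.05 was called. Standard errors are the fitted log2 change divided by the square root of F. CPM are counts per 1e6 of the TMM-scaled library total. Promoters and symbols came from RefSeq GRCr8, in which all 53 symbols were found and 40 had a promoter. The code was tested on simulated counts, where it recovered 64% of the genes changed 1.25-fold, 90% of those changed 1.5-fold and 98% of those changed 2-fold. Its share of false calls was 9.28%, above the threshold of 0.05 used, so calls just under that threshold are less certain.

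Members and gene lists were chosen with earlier results of these data known. All tested members are named. Values per library are given for called members with at least a 2-fold change and 5 CPM in the higher group. Of each neighbouring list the 2 called genes of smallest p are named, together with 14 regulators and enzymes that the naming rule lists, of which 1 is not reported here. Alternatives were RLE, upper quartile or library size scaling, no filter, DESeq2 1.42.0, limma-voom (limma 3.58.1), a replicate block, and leaving out each library.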

Additional observations from a re-analysis of the deposited data

How the results depend on the processing

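Over the 13 alternatives, 19 to 23 members were called higher and 12 or 13 lower, and leaving out 1 library gave 19 to 22 higher and 13 lower. Every member called in the main comparison kept its direction and its call in all alternatives, except Slc1a3, as given above, and Slc6a8. Scaling by library size alone reversed Slc6a8 to a log2 change of 0.010 and Chac1 to 0.038. It also left 5 of the other amino acid transport genes lower, against 10, and 4 of the NRF2 and glutathione genes lower, against 8. Slc6a17, not called, ran from -0.093 (without young replicate 3) to 0.36 (without young replicate 1) when 1 library was left out, with -0.024 without aged replicate 3, and was 0.44 with library size alone. Of all called genes, 51.7% were higher with TMM and 62.3% with library size alone.

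The replicate numbers do not pair the libraries: deviations from the group means correlated by -0.013, 0.0080 and 0.026 for numbers 1, 2 and 3 across genes. With replicate number as a block, 20 members were higher and 13 lower, and 6279 and 5883 genes were called in all, against 6375 and 5964. The 18 untested members had too few counts for the filter. With no filter 23 members were called higher and 13 lower.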
